A study of Mytilus galloprovincialis with 16 samples.

Results

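Among 1920 cDNA clones measured in the male mantle of the mussel Mytilus galloprovincialis, 108 clones (5.63%) met a rule for a shift only at spawning. Their mean log2 ratios were small for both steps up to the ripe gonad and larger in absolute size between ripe and spawning animals. Of these clones, 82 were higher at spawning and are called risers, and 26 were lower and are called fallers. The clones were chosen on the log2 ratios that the authors deposited, taken as the later over the earlier stage and averaged over the duplicate spots of a clone. A clone was taken when its mean over the 4 arrays of spawning against ripe animals was at least 0.4 in absolute size with the same sign on all 4, and when its means for both earlier steps were below 0.3 in absolute size. On the step from ripe to spawning alone, 10.8% of all clones were higher and 11.1% lower by this measure. All ratios of successive stages were used in the choice, and they are described here without a test.

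The samples were mantles of single male mussels from the Bizerta Lagoon in Tunisia, in 4 stages of gonad development. Stage 1 (early) was sampled in November, stage 2 (development) in January, stage 3 (ripe) in February and stage 4 (spawning) in March, so that stage and season cannot be told apart. On each of 16 dual-colour cDNA microarrays RNA of 1 animal was hybridised against RNA of an animal of another stage, in a loop of the pairs Stage2/Stage1, Stage3/Stage2, Stage4/Stage3 and Stage4/Stage1, each with 4 arrays and with the dyes exchanged on 2 of them. The animals came from a natural population with no treatment named, and whether an animal served for several arrays is not given in the labels. For Stage3/Stage2 replicate 1 the labels give different months for the same channel, and the stage in its title was used.

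In mussels most of the gonad lies inside the mantle, where follicles fill with gametes as the animals ripen and the connective tissue between them, which stores glycogen and lipid, shrinks. At spawning a male releases sperm into the water, the follicles empty, and storage tissue is rebuilt. A mantle sample therefore mixes germ cells with epithelium, storage cells, muscle and blood cells in proportions that change over the year. In such bulk RNA fewer cells of a type and less RNA per cell cannot be told apart. The files and tables used here pair no clone with a gene, so that neither functions nor the markers of mantle, sperm or other cell types could be looked up, and the clones are described by their values and the plate number in their ID.

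The arrays differed in how closely they repeated each other. Across all clones, which are not independent replicates, the correlation between arrays of a pair was 0.63 to 0.86 for Stage4/Stage3 and 0.31 to 0.83 for the earlier pairs. For Stage4/Stage1 it was only -0.23 to 0.19, and the mean log2 ratios of its clones had an SD of 0.12, against 0.36 to 0.50 for the other pairs. The lowest correlation of a Stage4/Stage1 with a Stage2/Stage1 array of the same dye orientation was -0.31, between replicate 4 and replicate 2. The dyes are stated in the labels and the direction was kept. The Stage4/Stage1 arrays are the only ones that the choice of clones did not use, so their low repeatability bears on every test below.

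The step from ripe to spawning alone would have given a longer list. A Stage4/Stage3 mean of at least 0.4 with 1 sign throughout was found for 207 clones that were higher and 213 that were lower. The means of both earlier steps were below 0.3 for 1071 clones (55.8%). With both conditions 82 of the 207 higher clones (39.6%) and 26 of the 213 lower clones (12.2%) remained. At the limit of 0.4 the closest riser inside had a mean of 0.406 and the closest clone outside 0.3998, and the closest faller had -0.401 against -0.393 outside. At the limit of 0.3 on the earlier steps the values inside and outside were 0.295 and 0.301 for clones higher at spawning, and 0.293 and 0.303 for clones lower at spawning. A further 34 clones that were higher and 15 that were lower met every condition but had means between 0.3 and 0.4. The limits therefore cut through a continuous range of values.

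Risers had a median Stage4/Stage3 log2 ratio of 0.63 (1.55-fold), with quartiles of 0.50 and 0.85 and a highest value of 3.96, and the median over all clones was 0.01. A ratio of at least 1 was found for 13 risers and of at least 2 for 4. The median of the risers was 0.405 on Stage4/Stage3 replicate 1, 0.69 on replicate 2, 0.68 on replicate 3 and 0.89 on replicate 4. Replicate 4 had the largest ratio for 58 of the 82 risers (in absolute size for 731 of all 1920 clones), and replicate 1 the smallest for 54 (750 of all clones). With the later stage in Cy5 the median was 0.77 and with it in Cy3 it was 0.50, and the choice of clones fixed both to be above 0. In the earlier steps the medians of the risers were 0.06 for Stage2/Stage1 and -0.03 for Stage3/Stage2. On single Stage2/Stage1 arrays they lay between -0.13 and 0.29, and the highest of these, on replicate 3, was below the lowest median of the Stage4/Stage3 arrays. The choice of clones favours this. Single clones scattered between arrays: their median SD over the 4 Stage2/Stage1 arrays was 0.29 for risers, 0.20 for fallers and 0.26 for all clones. Over the Stage3/Stage2 arrays it was 0.18, 0.16 and 0.23. A small earlier mean therefore does not show that a clone was level on each array.

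**Figure D1:**
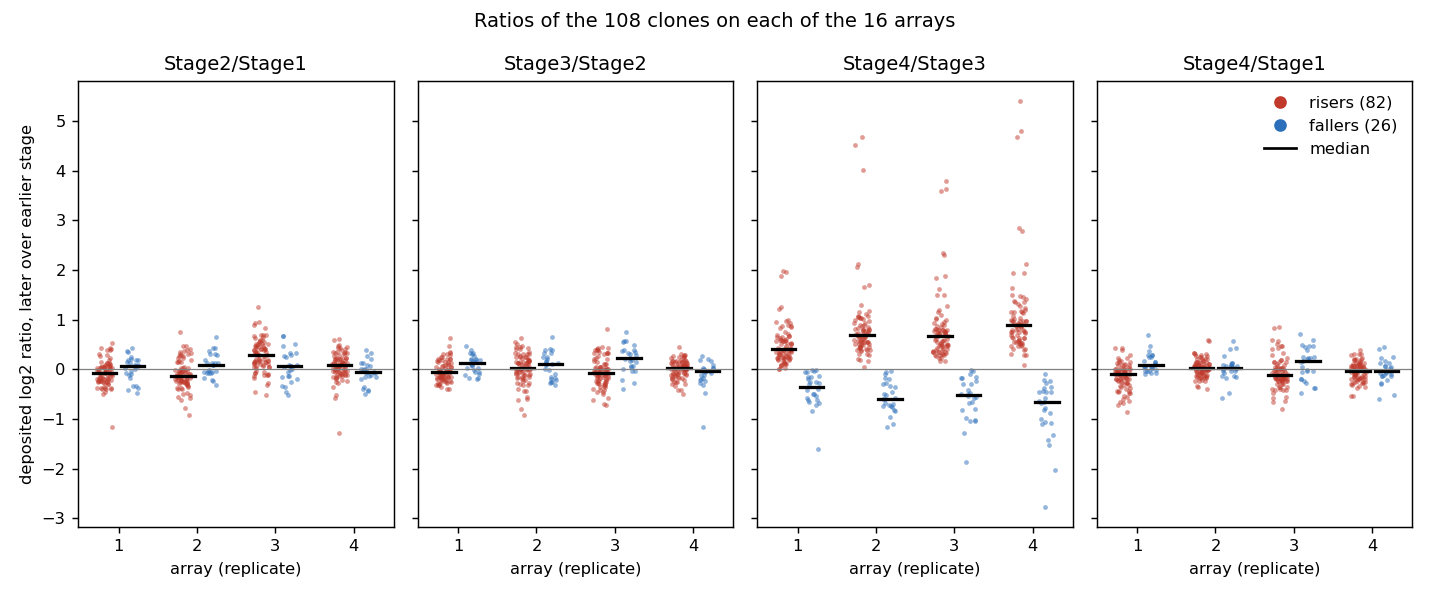
Deposited log2 ratios, later over earlier stage, of the 82 risers and 26 fallers on each of the 16 arrays, grouped by the pair of stages hybridised. Each point is a clone and black bars are medians, which for risers run from 0.405 to 0.89 on the Stage4/Stage3 arrays and from -0.12 to 0.04 on the Stage4/Stage1 arrays.

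Clone Myt01-016G08 had the largest ratio among the risers. Its Stage4/Stage3 log2 ratios were 1.975, 4.67, 3.79 and 5.40 on replicates 1 to 4, with a mean of 3.96 ± 1.48 (SD, n = 4) or 15.5-fold. Its Stage2/Stage1 ratios were 0.03, 0.19, 0.40 and 0.47, and its Stage3/Stage2 ratios were -0.16, 0.04, -0.11 and -0.21. All 4 spawning ratios lay above all 8 earlier ones, which the choice of clones favours, with replicate 1 well below the other 3. Both ratios with the spawning stage in Cy3 (replicates 1 and 3) were below both with it in Cy5. An effect of the dye on these ratios was not tested. The duplicate spots had means of 3.91 and 4.00, and the clone was well above background, that is with a foreground more than 2 background SDs over the local background in at least 1 spot, in both channels of all 4 Stage4/Stage3 arrays.

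Clone Myt01-016F03, from the same plate, came next. Its Stage4/Stage3 ratios were 1.96, 4.53, 3.64 and 4.80, with a mean of 3.73 ± 1.28 (SD, n = 4) or 13.3-fold. Before that its ratios were 0.535, 0.16, 0.03 and -0.36 for Stage2/Stage1 and 0.475, 0.20, 0.825 and -0.34 for Stage3/Stage2. The values before the ripe stage spread more than those of Myt01-016G08, and its Stage3/Stage2 mean of 0.29 was close to the limit. No earlier ratio reached the lowest spawning ratio, which the choice of clones favours. The third riser in this order, on plate 017, had a mean of 3.54 with ratios of 1.875, 4.01, 3.595 and 4.69, in the same order of arrays. This clone was well above background in the ripe channel on only 1 of the 4 arrays, so the size of its ratio rests largely on signals near background. The next 2, both on plate 016, had means of 2.04 and 1.98. Whether these clones carry the same or overlapping sequences is not given in the sources used here, and they may not be separate transcripts.

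The plate number in the clone ID was counted after the leading clones had been seen, and nothing was tested. The 1920 clones lie on 20 plates of 96. Plate 016 held 14 risers (14.6% of its clones) and plate 017 held 12 (12.5%), against 0 to 8 on each of the other plates. Plates 016 to 019 together held 39 of the 82 risers (47.6%) and 20% of all clones. On plates 016 and 017 lay 8 of the 13 risers with a ratio of at least 1 and all 4 with a ratio of at least 2. Among all clones, these plates held 12 of the 98 with an absolute ratio of at least 1 and 5 of the 13 with at least 2. No riser came from plates 013 and 020. On the slide itself the risers lay in all 16 print blocks, with at most 10 in a block. The median Stage4/Stage3 ratio of all clones on plates 016 and 017 was 0.07 and 0.11.

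**Figure D2:**
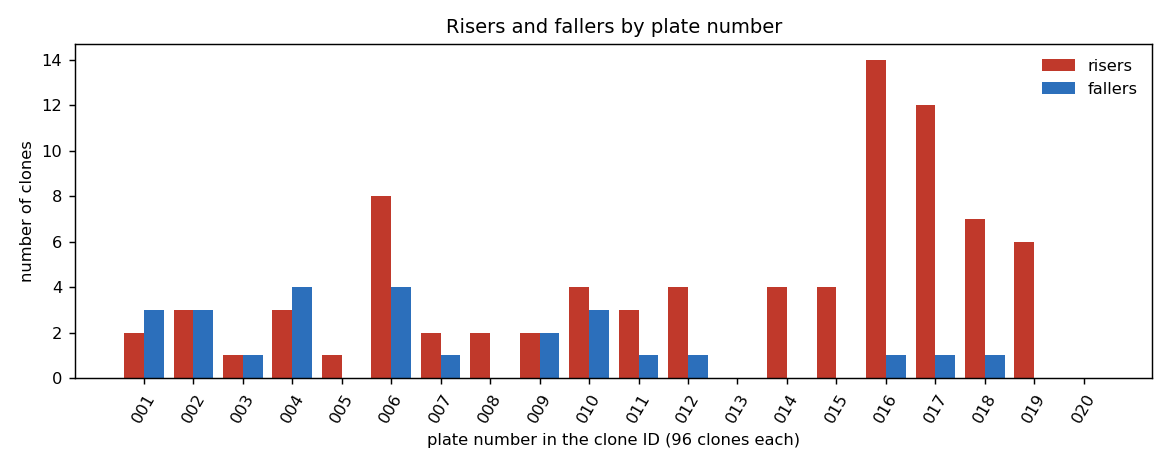
Number of risers and fallers by the plate number in the clone ID, with 96 clones on each of the 20 plates. Plates 016 and 017 hold 14 and 12 risers and 1 faller each, and plates 004 and 006 hold the most fallers, with 4 each.

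Some risers were dim before spawning. In the spawning channel of the Stage4/Stage3 arrays 79.3% to 100% of the risers per array were well above background (41.1% to 66.2% of all clones), and in the ripe channel 54.9% to 84.1% were (34.0% to 60.5% of all clones). On these arrays 10 risers were well above background in no ripe channel (688 of all 1920 clones), so that their ratio is only a bound. In no spawning channel were 0 risers so (546 of all clones). For the early stage 27 of the 82 risers were not well above background on any Stage2/Stage1 array (1038 of all 1920 clones), and 13 were not in the stage 2 channel of these arrays (723 of all clones). On the Stage4/Stage1 arrays 5 risers were not so in any early channel (779 of all clones). For the risers not well above background on the Stage2/Stage1 arrays, the small ratios of that step involved signals near background. On the Stage3/Stage2 arrays 4 risers were well above background in no stage 2 channel (320 of all clones) and 4 in no stage 3 channel (298 of all clones). In both channels of all 12 arrays of the successive pairs 23 risers (28.0%) were well above background (17.8% of all clones). Their median Stage4/Stage3 ratio was 0.69, against 0.63 for all 82.

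Fallers showed smaller ratios. Their median Stage4/Stage3 log2 ratio was -0.48 (1.40-fold lower), with quartiles of -0.63 and -0.45, and 2 of the 26 reached -1. The median of the fallers was -0.345, -0.59, -0.51 and -0.66 on replicates 1 to 4. As in the risers, replicate 1 was nearest to 0 and replicate 4 farthest from it. With the later stage in Cy5 the median was -0.61 and with it in Cy3 -0.43. Before that the medians were 0.07 for Stage2/Stage1 and 0.08 for Stage3/Stage2, and the Stage3/Stage2 median was 0.225 on replicate 3 and below 0, at -0.03, on replicate 4. The fallers lay on 13 plates and in 13 of the 16 blocks, and 16 of the 26 (61.5%) were on plates 001 to 007, which hold 35% of all clones and 20 of the 82 risers (24.4%).

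Clone Myt01-009F07 had the lowest mean among the fallers, and it rested on 2 arrays. Its Stage4/Stage3 log2 ratios were -0.395, -0.10, -1.865 and -2.76, with a mean of -1.28 ± 1.25 (SD, n = 4). The 2 large values came from replicates 3 and 4, where the clone was well above background in the ripe channel and not in the spawning channel. On replicates 1 and 2 it was not so in the ripe channel, and the ratio was small. In the earlier steps its ratios were -0.42 to 0.09 for Stage2/Stage1 and -0.25 to -0.11 for Stage3/Stage2, and in most of those channels the clone was not well above background. No fold is given for this clone, since its signal stood above background in both channels on no Stage4/Stage3 array.

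Clone Myt01-009C06, on the same plate, was measured in every channel of these arrays. Its Stage4/Stage3 ratios were -0.68, -0.96, -1.27 and -1.51, with a mean of -1.11 ± 0.36 (SD, n = 4) or 2.15-fold lower at spawning. Its earlier ratios were -0.33, -0.21, -0.19 and 0.01 for Stage2/Stage1 and -0.11, 0.01, 0.145 and -0.23 for Stage3/Stage2. Every spawning ratio lay below every earlier one, which the choice of clones favours, and the duplicate spots had means of -1.13 and -1.08. With the Stage4/Stage3 size and sign asked of each duplicate spot separately, 19 of the 26 fallers and 70 of the 82 risers remained, a count that the choice on the mean of both spots favours. On the Stage4/Stage3 arrays 4 fallers were well above background in no spawning channel (546 of all 1920 clones) and 1 in no ripe channel (688 of all clones), and 4 of the 26 were well above background in both channels of all 12 arrays.

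The direct hybridisations of spawning against early animals asked whether these clones also differed between the first and the last stage, and they allow a test that the choice of clones did not use. With the ratios recomputed from the scanner intensities, 0 of the 108 clones and 0 of all 1920 clones (0%) were called on these 4 arrays by limma at an adjusted p below 0.05. At an unadjusted p below 0.05 were 0 risers, 1 faller and 32 of all clones (1.67%), and the smallest adjusted p was 0.892. The mean log2 ratio ran from -0.20 to 0.16 in the risers and from -0.14 to 0.26 in the fallers. No clone of either group therefore reached 0.4 in absolute size (23 of all clones did). The median 95% confidence interval of a riser ran from -0.24 to 0.16 and that of a faller from -0.14 to 0.29. The median interval thus did not reach 0.4 in either direction.

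The signs did not follow those of the step from ripe to spawning. Of the 82 risers 28 (34.1%) had a Stage4/Stage1 mean above 0 (52.7% of all clones), and of the 26 fallers 6 (23.1%) had a mean below 0 (47.3% of all clones). The median of the risers was -0.04, and on replicates 1 to 4 it was -0.12, 0.04, -0.06 and -0.01. The median of the fallers was 0.09, and on the arrays 0.12, -0.03, 0.13 and 0.00. Both medians were of the size of the spread between arrays (SD 0.07 and 0.08), and the groups overlapped on every array. Among clones that stood well above background in every channel of the 4 Stage4/Stage1 arrays, the median was -0.08 for 41 risers and 0.13 for 9 fallers. These were 41 of the 82 risers and 9 of the 26 fallers, and an effect of low signal on the ratios was not tested.

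Myt01-016G08 had a Stage4/Stage1 log2 ratio of -0.08 ± 0.15 (SE, 95% confidence interval -0.46 to 0.30, limma adjusted p = 0.925), and Myt01-016F03 of -0.17 ± 0.21 (-0.69 to 0.36, limma adjusted p = 0.902). In the deposited values the ratios on replicates 1 to 4 were -0.65, -0.035, 0.465 and 0.07 for the first clone and -0.18, 0.125, 0.86 and -0.52 for the second. Both clones thus scattered around 0, and the sign of the mean changed with the setting: without replicate 1 it was 0.10 for Myt01-016G08, and in the deposited values it was 0.07 for Myt01-016F03. The 2 leading fallers had 0.04 ± 0.06 for Myt01-009F07 and 0.09 ± 0.07 for Myt01-009C06 (SE, limma adjusted p of 0.902 and 0.892). Of these, Myt01-009F07 was well above background on 1 of 4 Stage4/Stage1 arrays in each channel and Myt01-009C06 on 2 of 4 in the stage 4 channel, so these ratios near 0 do not show that the clones were level.

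If the 4 pairs of stages added up around the loop, the 3 successive ratios of a clone would sum to its Stage4/Stage1 ratio. In the deposited values the sum for the risers had a median of 0.72 and ran from 0.05 to 4.12, while the direct mean had a median of -0.05 and ran from -0.26 to 0.16. The direct value was below the sum in 81 of 82 risers (888 of all 1920 clones). For the fallers the sum had a median of -0.35 (-1.61 to 0.05) and the direct mean a median of 0.06 (-0.16 to 0.21). The direct value was above the sum in 25 of 26 fallers (1032 of all 1920 clones). Over all clones the sum ran from -5.19 to 4.12 and the direct mean from -0.55 to 0.76, so the narrow range of direct values was not particular to these clones. The sums contain the ratios that chose the clones, so these differences are given without a test. In the plot of sum against direct ratio the clones therefore lie along a flat band near 0 and not along the line of equal values.

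**Figure D3:**
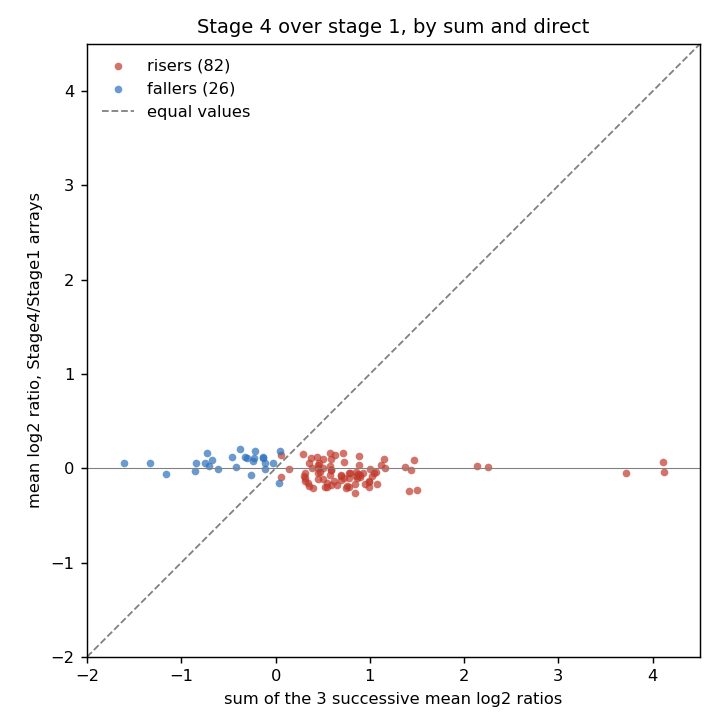
Stage 4 over stage 1 for each riser and faller, as the sum of the 3 successive mean log2 ratios (horizontal) and as the mean log2 ratio of the 4 Stage4/Stage1 arrays (vertical), in deposited values on equal scales. The sums reach 4.12 while the direct means stay between -0.26 and 0.21.

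Since each stage was hybridised in 2 pairs, the level of a clone in a stage could be followed from one set of arrays to the other. Channel levels are log2 intensities after loess, with the average intensity made equal between arrays. Myt01-016G08 in spawning animals had levels of 12.3, 12.3, 12.9 and 13.0 on the Stage4/Stage3 arrays but 9.89, 12.4, 10.2 and 12.8 on the Stage4/Stage1 arrays. Its ripe levels on the Stage4/Stage3 arrays were 10.4, 7.75, 9.28 and 7.70, with the ripe stage in Cy5 on replicates 1 and 3. On the Stage3/Stage2 arrays its ripe levels were 8.43 to 8.70. In early animals the clone had levels of 8.68, 8.80, 8.08 and 8.30 on the Stage2/Stage1 arrays, not well above background on replicates 3 and 4. On the Stage4/Stage1 arrays its early levels were 10.5, 12.6, 9.88 and 12.7. On each Stage4/Stage1 array the early channel thus lay close to the spawning channel, high on replicates 2 and 4 and lower on replicates 1 and 3, and all 4 early levels there were above all 4 on the Stage2/Stage1 arrays. Myt01-016F03 had the same layout, with early levels of 8.68 to 8.99 on the Stage2/Stage1 arrays and of 9.63, 12.7, 9.20 and 12.8 on the Stage4/Stage1 arrays, beside spawning levels of 9.46, 12.9, 9.47 and 11.8 on those same arrays.

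**Figure D4:**
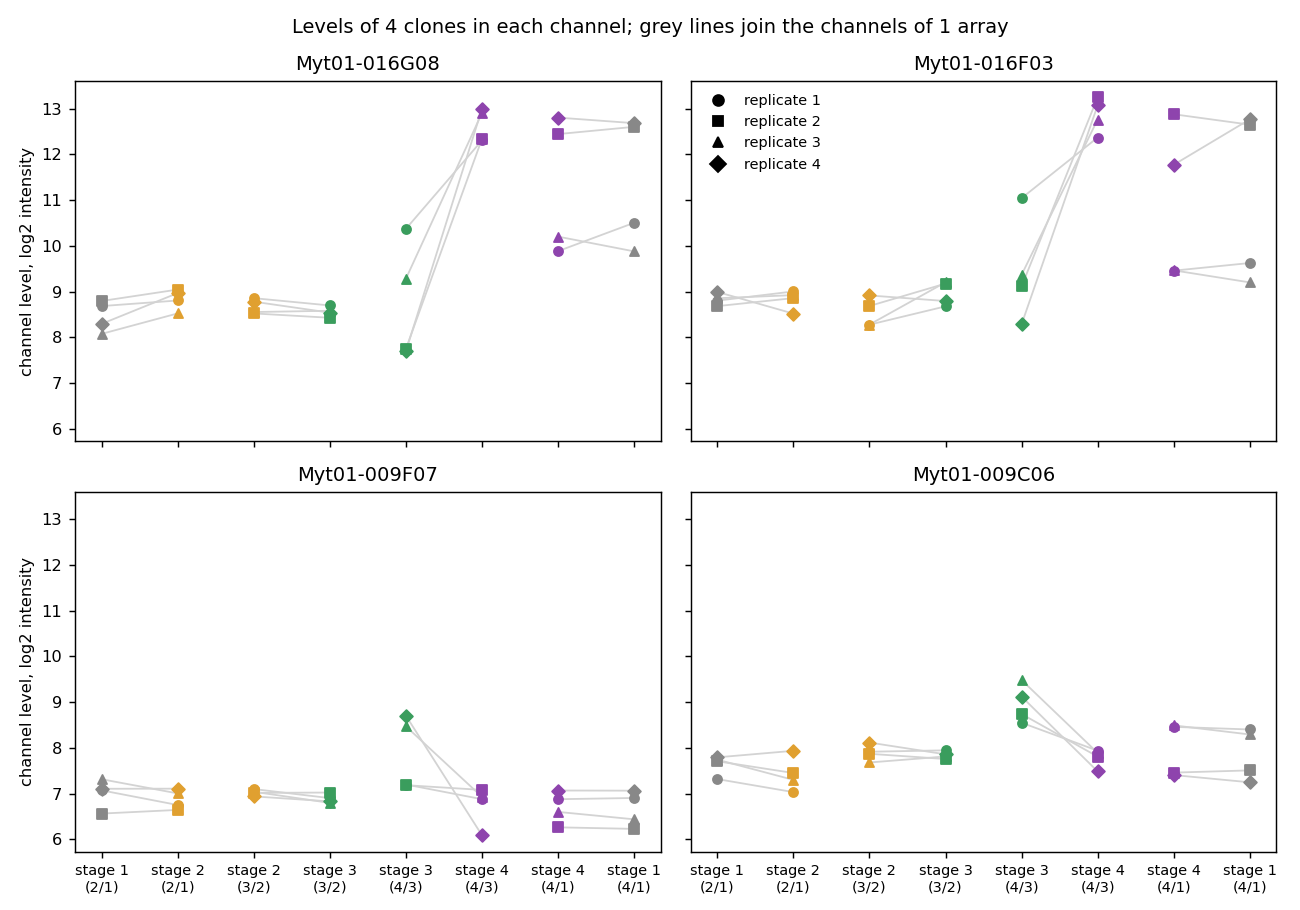
Channel levels (log2 intensity) of the 2 leading risers, above, and the 2 leading fallers, below, in each stage on each of the 4 sets of arrays, with the pair in brackets, symbols for replicates and grey lines joining both channels of an array. For Myt01-016G08 the early levels are 8.08 to 8.80 on Stage2/Stage1 arrays and 9.88 to 12.7 on Stage4/Stage1 arrays, where they sit beside the spawning levels.

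Because of these levels the early channel was then tested between the 2 sets of arrays in all clones, a comparison chosen after the data had been seen and made between arrays and not within them. The Stage2/Stage1 arrays also entered the choice of clones, through their ratios. By limma 90 of 1920 clones were higher on the Stage4/Stage1 arrays (4.69%) and 89 lower (4.64%). Of the risers 5 (6.10%) were called higher and 0 lower, a share near that of all clones, and of the fallers 0 were called. Myt01-016G08 was among the 5, with a difference of 2.95 ± 0.58 (SE). Myt01-016F03 had 2.23 ± 0.75 (SE) and did not pass, but did without Stage4/Stage1 replicate 3, at 2.85. The levels of these 2 clones prompted the comparison, so that their values here are a description. In both directions together 179 clones were called with all arrays. This count fell to 85 without Stage4/Stage1 replicate 2, with 3 risers, and to 81 without Stage2/Stage1 replicate 1, also with 3 risers. Without Stage4/Stage1 replicate 4 it fell to 87. The count among the risers was 8 without Stage4/Stage1 replicate 3.

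The risers as a group had a median difference of 0.27 in the early level between these sets of arrays, with 57 of 82 (69.5%) above 0 (48.1% of all clones) and a median over all clones of -0.02. In 14 risers (17.1%) all 4 early levels on the Stage4/Stage1 arrays lay above all 4 on the Stage2/Stage1 arrays, against 8.54% of all clones. In the spawning channel the risers were higher by a median of 0.36 on the Stage4/Stage3 than on the Stage4/Stage1 arrays (all clones -0.03). They were higher in 72 of 82, against 905 of all 1920 clones. The fallers were lower by a median of 0.42 there, in 19 of 26 (1015 of all clones), and their early level differed by a median of 0.02. For the ripe channel the fallers were higher by 0.21 on the Stage4/Stage3 than on the Stage3/Stage2 arrays, and the risers differed by -0.02. The spawning and ripe levels on the Stage4/Stage3 arrays are those that chose the clones, and these differences are a description.

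For Myt01-009C06 the set of levels that stood apart was that of the ripe animals on the Stage4/Stage3 arrays. They were 8.55, 8.74, 9.48 and 9.12 there, against 7.76 to 7.95 for ripe animals on the Stage3/Stage2 arrays. Its spawning levels were 7.49 to 7.94 on the Stage4/Stage3 arrays and 7.41 to 8.49 on the Stage4/Stage1 arrays, and its early levels 7.32 to 7.79 and 7.25 to 8.40. The ripe levels on the Stage4/Stage3 arrays lay above all its other levels. In Myt01-009F07 the ripe levels on replicates 3 and 4 of the same arrays (8.47 and 8.70) were above all its other levels, which lay between 6.09 and 7.32. The ripe levels were not tested between sets of arrays. Differences between animals of a stage and differences between sets of arrays cannot be told apart, since the labels do not identify animals across arrays.

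The list itself depended on how the ratios were made. With loess over the whole array from the scanner values, 75 clones met the rule as risers and 29 as fallers, among them 73 of the 82 risers (89.0%) and 23 of the 26 fallers (88.5%). With loess within each print block 76 and 30 met it, with 59 of the risers (72.0%) and 16 of the fallers (61.5%) among them. Without background correction 49 and 12 did, including 33 of the risers (40.2%) and 4 of the fallers (15.4%), and the median Stage4/Stage3 ratio was 0.35 for the risers and -0.30 for the fallers. With median centring in place of loess 50 and 8 did, including 37 and 7 of the original groups. What the lost clones had in common was not tested.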

How the data were processed

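The authors scanned the slides and deposited the raw intensity of each spot and its local background in both dyes, together with log2 ratios per spot. The submitters' processing notes name limma. The deposited log2 ratios, averaged over duplicate spots, chose the clones. The clones and alternatives were chosen with earlier results of these data known. For the tests, intensities were recomputed in limma 3.58.1 (R 4.3.3) with normexp correction (offset 50), print-tip loess and averaged duplicate spots, and ratios were turned by the dyes in the labels. The 4 Stage4/Stage1 arrays were fitted alone, with two-sided moderated tests, Benjamini-Hochberg adjustment over 1920 clones and a threshold of 0.05. Channel levels came from Aquantile normalization, and the early channel was compared over 8 arrays. Named clones are the 2 risers and 2 fallers with the largest Stage4/Stage3 means. The gene and marker lists could not be applied, since no clone was paired with a gene. Fits were tested on simulated data. The number of arrays limits the precision, and p-values measure the spread between arrays. Figures were drawn with matplotlib 3.10.9.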

Additional observations from a re-analysis of the deposited data

Results flagged for a closer look

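An array far from the others of its set was looked for in 56 sets of 4 arrays, namely the ratios and channel levels of the 4 named clones and the medians of risers and fallers. Chance gives about 1 in 20, and 1 set was found. The median Stage2/Stage1 log2 ratio of the 26 fallers was -0.053 on replicate 4, against 0.0775, 0.084 and 0.065 on replicates 1 to 3.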

How the results depend on the processing

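No clone was called for stage 4 vs stage 1 (0 of 1920 and 0 of the members) in any of the 14 alternatives run, among them the deposited values, B above 0 and the replicate block. Correlations of same-numbered arrays ran from -0.24 to 0.32, with 12 of 24 above 0.1, and from 0.11 to 0.32 on replicate 4. They do not settle whether the same numbers pair the arrays. The block gave 144 clones and 6 risers for the early channel, against 179 and 5. The median of the risers stayed below 0 and that of the fallers above 0 in the 10 alternatives in which they were computed. With median centring the Stage4/Stage1 median of the risers was -0.12, and 13 risers and 10 fallers had the sign of their spawning step, against 28 and 6. With the filter on low signal 14 and 3 did, but it leaves fewer clones and members, so these counts cannot be set against 28 and 6. Leaving out 1 Stage4/Stage1 array gave 23 to 37 risers and 5 to 8 fallers, with medians of -0.07 to -0.01 and of 0.04 to 0.10. The Stage4/Stage1 mean of Myt01-016F03 was 0.0696 in the deposited values and 0.10 with loess over the array, and without 1 array it ran from -0.31 (without replicate 3) to 0.11 (without replicate 4). That of Myt01-016G08 ran from -0.22 (without replicate 3) to 0.10 (without replicate 1). The cause was not tested.

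The rule gave 50 risers and 8 fallers with median centring and 49 and 12 without background correction, settings chosen after the data had been seen. Background correction changed the Stage4/Stage3 median of the members, to 0.35 and -0.30 without it, from 0.56 and -0.48 with print-tip loess. A Stage4/Stage3 limit of 0.5 left 11 fallers and an earlier limit of 0.2 left 13. Leaving out 1 array gave 72 to 107 risers and 18 to 38 fallers, and 81 to 166 clones and 3 to 8 risers for the early channel, where Myt01-016G08 was called in each of the 11 alternatives and Myt01-016F03, not called otherwise, at 2.85 without Stage4/Stage1 replicate 3 (1.66 to 2.85 without 1 array). No scan date or slide was named in the files used here, so that a block for them was not run. Dim ripe and early channels limit the ratios of many members.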
